A study of Mus musculus with 16 samples.

Results

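The pelvic ganglion and autonomic neuron genes described here are 37 genes chosen by name from the 55228 genes of the count table, and all 37 passed the filter on low counts. They comprise 6 transcription factors, 5 genes of catecholamine synthesis and vesicle loading, 3 cholinergic genes, 5 nicotinic receptor subunits, 13 pan-neuronal genes and 5 peptide or nitric oxide genes. The study measured polyadenylated RNA in the mesenchyme (the connective tissue and muscle layer, with the epithelium peeled off) of bladder and pelvic urethra from wildtype, untreated CD-1 mouse embryos at embryonic day 16.5. From each of 4 litters, tissue of female and of male embryos was pooled separately. Bladder and urethra thus have 4 libraries of each sex, in which replicates 1 to 4 are the 4 litters. All groups share the trypsin treatment (1% for 90 minutes) that preceded the mechanical separation of the layers, and no single embryo can be told apart within a pool. The sources used here do not give how many embryos entered a pool, and a p-value below measures the spread between litter pools.

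The pelvic ganglia lie beside the bladder neck and urethra and hold both noradrenergic (sympathetic) and cholinergic (parasympathetic) neurons derived from the neural crest. The paired-like homeodomain factor Phox2a, with Hand, Gata and Insm1 factors, takes part in the autonomic neuron programme. Preganglionic axons from the spinal cord act on these neurons through nicotinic acetylcholine receptors, and the neurons release noradrenaline, acetylcholine, nitric oxide and peptides onto smooth muscle, vessels and glands. Their cell bodies sit in the ganglia while their axons run in the organ wall, and messenger RNA is found mostly in cell bodies. In bulk tissue, fewer cells of a type and less RNA per cell cannot be told apart.

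Promoter sequences are shown for 3 members called higher in urethra whose promoters hold a cAMP response element or its half-site: tyrosine hydroxylase (Th), the vesicular monoamine transporter 2 (Slc18a2) and vasoactive intestinal peptide (Vip). RefSeq (GRCm38.p6) start sites were on hand for 29 of the 37 members, and the windows run from 250 bases before to 10 bases after that start, 5′ to 3′ on the gene's strand. Capitals mark the cAMP response element TGACGTCA in Th and Slc18a2, and its half-site TGACG in Vip. The element binds CREB-family factors, and a cAMP response element in the Th and Vip promoters is textbook knowledge. In Vip the search found the half-site but not the full TGACGTCA. The Th window is chr7:142899986-142900245 (minus strand), the Slc18a2 window is chr19:59260628-59260887 (plus strand) and the Vip window is chr10:5638968-5639227 (plus strand).
Th: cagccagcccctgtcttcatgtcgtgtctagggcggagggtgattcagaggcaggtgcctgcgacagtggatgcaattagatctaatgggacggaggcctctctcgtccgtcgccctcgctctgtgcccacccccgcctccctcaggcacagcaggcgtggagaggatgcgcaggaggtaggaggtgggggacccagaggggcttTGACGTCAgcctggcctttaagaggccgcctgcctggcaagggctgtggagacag
Slc18a2: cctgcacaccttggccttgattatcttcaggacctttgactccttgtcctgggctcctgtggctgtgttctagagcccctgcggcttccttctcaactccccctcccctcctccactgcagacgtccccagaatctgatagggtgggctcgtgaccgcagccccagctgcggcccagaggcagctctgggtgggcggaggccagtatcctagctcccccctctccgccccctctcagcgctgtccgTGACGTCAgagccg
Vip: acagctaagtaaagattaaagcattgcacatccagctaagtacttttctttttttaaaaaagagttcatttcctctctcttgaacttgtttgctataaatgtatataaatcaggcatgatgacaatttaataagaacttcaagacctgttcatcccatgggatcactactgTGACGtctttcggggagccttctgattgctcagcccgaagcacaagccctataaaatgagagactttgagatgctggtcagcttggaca
The marked letters begin 45 bases before the RefSeq start in Th, 4 before it in Slc18a2 and 79 before it in Vip. The 29 members have 39 promoters, and shares are given per promoter. In the full 300-base windows, searched on both strands, TGACGTCA was found in 3 of the 39 (in Th, Slc18a2 and Cartpt). It was found in 1.79% of all 32851 RefSeq promoters. The half-site TGACG, which the full element contains, was found in 15 of the 39 (13 of 29 members) and 20.8% of all promoters. The E-box CAGCTG, of the kind that basic helix-loop-helix proteins can bind, was found in 9 of the 39 (8 members) and 16.3% of all. The palindromic motif of paired homeodomain dimers with a spacer of 3 bases was found in none of the 39 and in 0.487% of all. A match is a description of letters, not evidence of binding.

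Bladder libraries held 18577097 to 22293812 assigned read pairs and urethra libraries 24447435 to 29698009. Levels are given as CPM, the counts of a gene divided by the library's total and scaled to 1000000, on library totals scaled by the trimmed mean of M-values (TMM), and changes as log2 fold changes ± standard error (SE) from edgeR's quasi-likelihood test over 18254 tested genes. A gene is called changed at a Benjamini-Hochberg adjusted p under 0.05. The labelled mesenchyme was present in every library: 8 mesenchymal markers summed to between 16439 and 20731 CPM in bladder and between 10362 and 12614 CPM in urethra. Epithelial RNA was present too. A list of 13 urothelial markers summed to between 2043 and 5018 CPM in bladder and between 683 and 2303 CPM in urethra. The lists used here were drawn up with earlier results of these data known.

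The neuron genes were far higher in the urethra than in the bladder, in both sexes and in every litter. All 37 members were called higher in urethra, where 36.5% of all tested genes were called higher and 38.5% lower. Their median log2 fold change was 3.66, from 0.70 for Hand2 to 4.79 for Vip, beside a median of -0.026 over all tested genes. Of the 37, 29 were at least 8-fold higher, a size that 3.12% of all tested genes reached. Within 1 sex, all 37 were called higher as well, in females with a median of 4.20 (32.6% of all tested genes were called higher) and in males with a median of 3.09 (31.4%). Without male bladder replicate 3, the median in males was 3.94 and that in females 4.21. In 36 of 37 members the lowest urethra library lay above the highest bladder library, which was true of 22% of all tested genes, and the exception was Gata3. Summed over the members, the bladder libraries held 400.2 to 1477 CPM (median 500.1) and the urethra libraries 4413 to 7217 CPM (median 5310). One member, Chat, reached the filter's CPM cutoff of 0.428 in only 1 bladder library and so passed through the urethra alone, and the other 36 reached it in at least 4 bladder libraries.

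**Figure D1:**
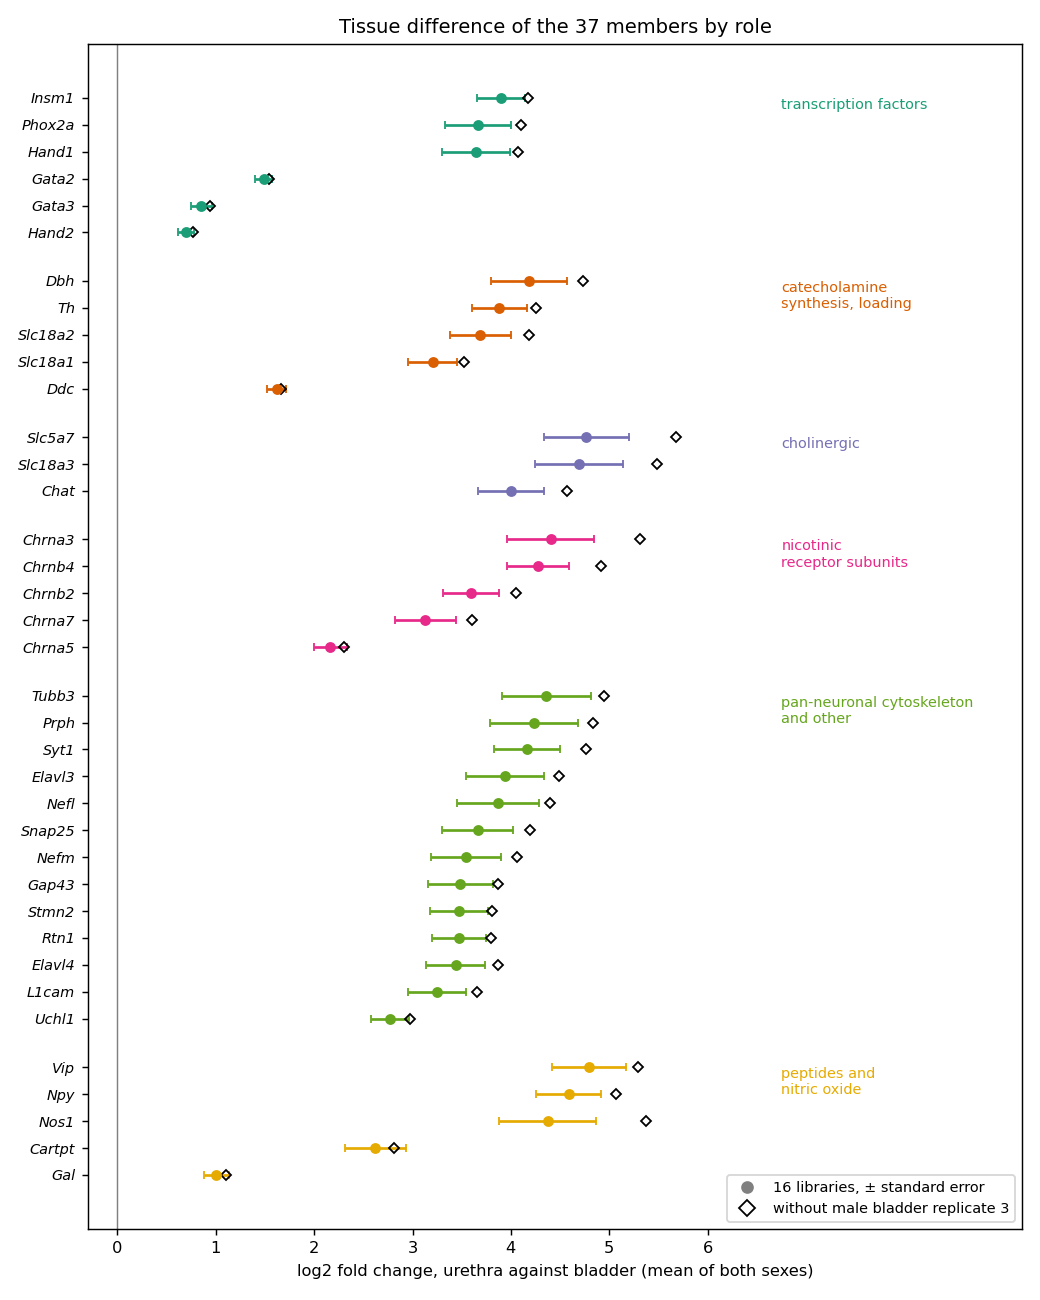
Log2 fold change of urethra over bladder for the 37 members, grouped by role. Filled circles are the 16-library values with their standard error as bars and open diamonds are the values without male bladder replicate 3. All points lie to the right of 0, Hand2, Gata3 and Gal lie nearest to it, and every diamond lies to the right of its circle. That library was singled out for its high levels of the members, so the shift largely follows from the choice.

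Among the transcription factors, 3 had large differences and 3 had small ones. Phox2a, a determinant of autonomic and noradrenergic identity, stood at 2.63, 6.93, 4 and 3.77 CPM in the female and 2.51, 9.25, 18.6 and 2.36 CPM in the male bladder libraries of litters 1 to 4. In urethra it stood at 65.2, 90.8, 75.8 and 96.5 CPM in the female and 61, 72.4, 76.8 and 72 CPM in the male libraries. The groups did not overlap, the male bladder library of litter 3 was the highest bladder library, and the log2 fold change was 3.67 ± 0.34 (12.7-fold, adjusted p = 1.4e-07 by edgeR). Insm1, a zinc finger factor of neuroendocrine and neuronal precursors, was barely detected in bladder at 0.112, 0.966, 0.456 and 0.478 CPM in the female and 0.251, 0.681, 1.3 and 0.591 CPM in the male libraries. It reached 8.48, 11.5, 10.4 and 13.5 CPM in the female and 5.91, 7.62, 7.8 and 8.12 CPM in the male libraries of urethra. That was the largest change of the role, 3.90 ± 0.25 (14.9-fold, adjusted p = 4e-10 by edgeR), and Hand1, a basic helix-loop-helix factor, was close to it at 3.64 ± 0.35.

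Hand2, the related factor that drives noradrenergic differentiation, had a small change. It was already abundant in bladder, at 79.8, 95.6, 105 and 90.8 CPM in the female and 92.8, 89.7, 105 and 80.8 CPM in the male libraries, and stood at 141, 186, 159 and 190 CPM in the female and 109, 141, 142 and 138 CPM in the male urethra libraries. Its log2 fold change was 0.70 ± 0.08 (1.62-fold, adjusted p = 5.9e-07 by edgeR), the smallest of the 37 members, and the lowest urethra library was only 1.04 times the highest bladder library. Gata3, a zinc finger factor of sympathetic neurons that is also expressed in urothelium and in the Wolffian duct, stood at 39.4, 44.1, 26.6 and 36.6 CPM in the female and 40.8, 52.1, 60.8 and 47.5 CPM in the male bladder libraries. In urethra it stood at 68.5, 83, 56.4 and 61 CPM in the female and 86.9, 82.4, 91.2 and 97.4 CPM in the male libraries, so that the female urethra library of litter 3 lay below the highest bladder library. Its change was 0.85 ± 0.11 (1.81-fold, adjusted p = 1.7e-06 by edgeR), and it was higher in urethra in 8 of 8 pools of the same litter and sex. Gata2, which endothelium also expresses, changed by 1.49 ± 0.08. The 12 other urothelial markers included 9 that were called lower in urethra and none that was called higher. The other 7 endothelial markers were each higher, by 0.51 to 0.93, and the 5 other duct markers were higher by 1.64 to 4.34. The part of these cells in the Gata2 and Gata3 values was not tested.

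**Figure D2:**
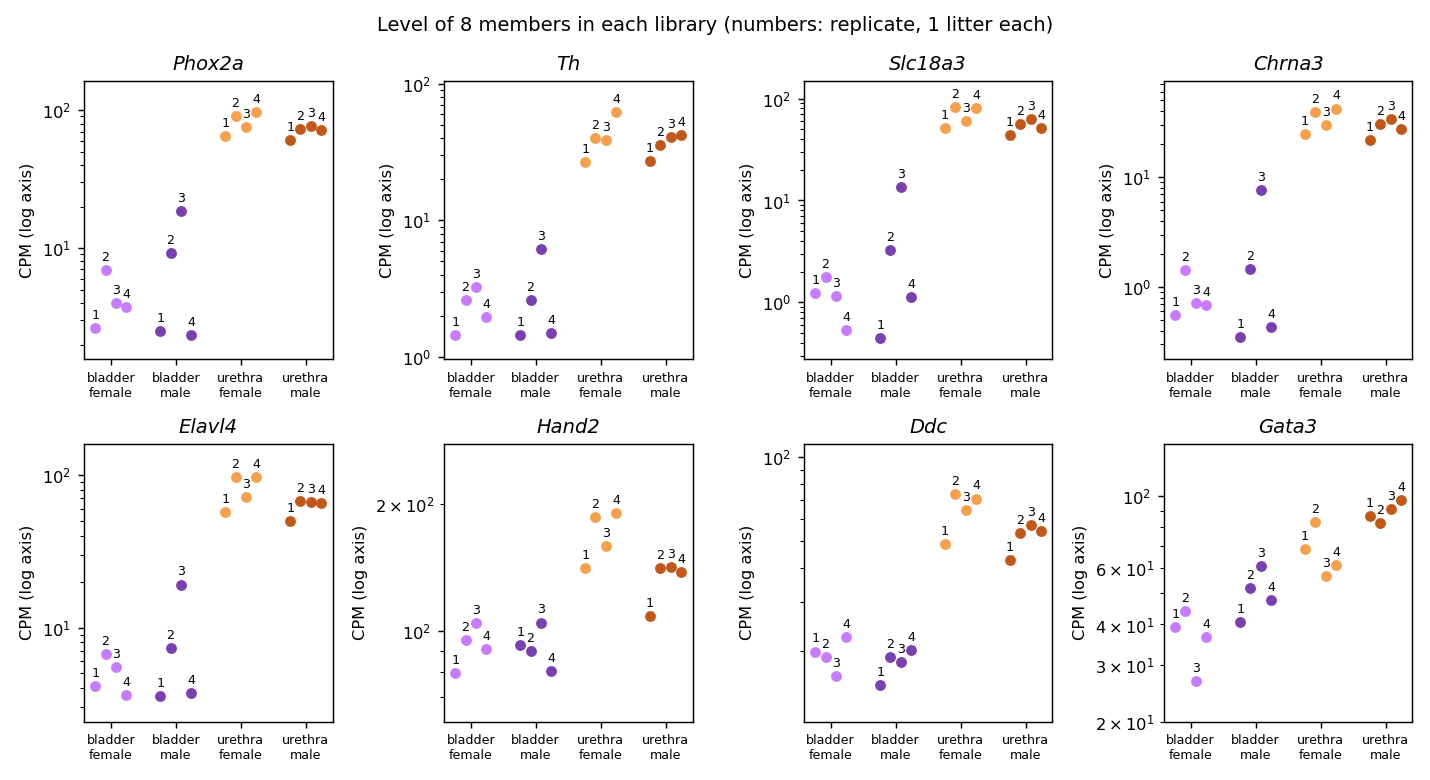
Level in CPM (log axis) of 8 members in each of the 16 libraries, by tissue and sex, with the litter number at each point. Phox2a, Th, Slc18a3, Chrna3 and Elavl4 are separated by wide gaps between the tissues and their male bladder library of litter 3 lies highest among the bladder libraries, while Hand2, Ddc and Gata3 lie closer together.

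The 5 genes of catecholamine synthesis and vesicle loading were all called higher in urethra. Th, the rate-limiting enzyme, stood at 1.45, 2.61, 3.24 and 1.96 CPM in the female and 1.46, 2.63, 6.2 and 1.5 CPM in the male bladder libraries. The urethra libraries held 26.6, 39.9, 39 and 62.1 CPM in the female and 27.1, 35.9, 40.5 and 41.9 CPM in the male libraries, a change of 3.88 ± 0.28 (14.8-fold, adjusted p = 6.1e-09 by edgeR) with no overlap. Dopamine beta-hydroxylase (Dbh), which makes noradrenaline from dopamine, had the largest change of the role. It stood at 1.85, 5.23, 4.61 and 2.97 CPM in the female and 1.41, 6.76, 17.4 and 1.88 CPM in the male bladder libraries and at 69.4, 115, 102 and 136 CPM in the female and 59.6, 81.1, 91.4 and 88.1 CPM in the male urethra libraries, a change of 4.18 ± 0.39 (18.1-fold, adjusted p = 1.5e-07 by edgeR). Aromatic amino acid decarboxylase (Ddc), the enzyme between Th and Dbh, had the smallest. It stood at 20, 19.1, 16.3 and 22.5 CPM in the female and 15.1, 19, 18.3 and 20.2 CPM in the male bladder libraries, so that male litter 3 was not high, and at 48.8, 73.7, 64.6 and 71 CPM in the female and 42.7, 53.4, 57.1 and 54.3 CPM in the male urethra libraries. The Ddc change was 1.62 ± 0.10 (3.08-fold, adjusted p = 1.8e-10 by edgeR). The 2 vesicular monoamine transporters differed little in size of change, with Slc18a2 at 3.69 ± 0.31 and Slc18a1, the form of chromaffin cells, at 3.20 ± 0.24. Pnmt, the adrenaline-making enzyme that defines adrenergic chromaffin cells, had 0 counts in all 8 bladder libraries and at most 0.104 CPM in urethra. Of the 5 tested markers of chromaffin or paraganglion cells, 4 were called higher in urethra and none lower: Th and Slc18a1, which are members, Chga (3.96 ± 0.31) and Chgb (3.73 ± 0.30). Cox4i2 was not called, at 0.07 ± 0.09. The summed level of the list ran from 17.96 to 40.2 CPM in bladder and from 123 to 252 CPM in urethra, and the part of such cells in the catecholamine values was not tested.

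Cholinergic genes had the largest median log2 fold change of any role, 4.69 over the 3, of which Chat passed the filter through the urethra alone. The peptide and nitric oxide genes followed at 4.38, and within males the medians of these roles were 3.51 and 3.50. The choline transporter Slc5a7, which takes up choline for acetylcholine synthesis, stood at 1.79, 1.42, 1.11 and 1.06 CPM in the female and 0.552, 2, 12.1 and 0.967 CPM in the male bladder libraries and at 57.7, 91.8, 56.9 and 79.7 CPM in the female and 48.4, 57.3, 67 and 50.8 CPM in the male urethra libraries. Its change was 4.77 ± 0.43 (27.2-fold, adjusted p = 1.1e-07 by edgeR). The vesicular acetylcholine transporter Slc18a3 stood at 1.23, 1.76, 1.16 and 0.531 CPM in the female and 0.452, 3.26, 13.4 and 1.13 CPM in the male bladder libraries. In urethra it stood at 51.1, 81.7, 60.3 and 80.5 CPM in the female and 44, 56.3, 62.4 and 51 CPM in the male libraries, a change of 4.69 ± 0.45 (25.8-fold, adjusted p = 1.9e-07 by edgeR). For both transporters 1 bladder library, male litter 3, held over 10 CPM and no other bladder library exceeded 3.26 CPM. Choline acetyltransferase (Chat) was much lower, at 0, 0.17, 0.304 and 0.265 CPM in the female and 0.151, 0.341, 1.06 and 0.107 CPM in the male bladder libraries and 3.69, 5.29, 5.78 and 6.41 CPM in the female and 2.99, 4.12, 5.13 and 4.08 CPM in the male urethra libraries, a change of 4.00 ± 0.33 (adjusted p = 1.3e-08 by edgeR). Slc18a3 (chromosome 14, 32462438 to 32464850, minus strand, GRCm38) lies within the Chat gene (32408203 to 32465989, same strand). The 2 genes share no exon base in GENCODE M21, and reads that fall on more than 1 gene were not counted. Per kilobase of exon, the median urethra level was 24.2 CPM for Slc18a3 and 0.984 CPM for Chat, the lowest of the 37.

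The nicotinic receptor subunits, the channels through which preganglionic axons excite ganglion cells, were all called higher in urethra. Chrna3, the alpha subunit of the main ganglionic receptor, stood at 0.559, 1.42, 0.709 and 0.69 CPM in the female and 0.351, 1.46, 7.64 and 0.43 CPM in the male bladder libraries. In urethra it stood at 24.9, 39.5, 29.8 and 42.2 CPM in the female and 21.8, 30.4, 33.8 and 27.2 CPM in the male libraries, a change of 4.41 ± 0.44 (21.2-fold, adjusted p = 3.4e-07 by edgeR). Its beta partner Chrnb4 changed by 4.27 ± 0.32, Chrnb2 by 3.59 ± 0.28 and Chrna7, which forms receptors on its own, by 3.13 ± 0.31. Chrna5, an accessory subunit, changed least. It stood at 1.23, 1.99, 1.42 and 1.33 CPM in the female and 0.903, 1.9, 2.5 and 1.88 CPM in the male bladder libraries and at 6.29, 8.82, 7.23 and 9.61 CPM in the female and 5.2, 7.2, 7.37 and 7.36 CPM in the male urethra libraries, a change of 2.16 ± 0.17 (4.48-fold, adjusted p = 4e-09 by edgeR). Chrna5 (54980880 to 55007779, plus strand), Chrna3 (55010111 to 55026562, minus) and Chrnb4 (55028154 to 55048779, minus) are neighbours on chromosome 9 (GRCm38). Median urethra levels per kilobase of exon were 5.72 CPM for Chrna3, 3.03 for Chrnb4, 2.33 for Chrna5, 2.31 for Chrnb2 and 1.14 for Chrna7.

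In urethra, the pan-neuronal genes made up most of the members' summed CPM. Their 13 summed levels ran from 143 to 1034 CPM over the bladder libraries and from 3421 to 5735 CPM over the urethra libraries. Tubb3, the neuronal beta-tubulin, had the largest change of the role. It stood at 10.2, 17.2, 12.5 and 8.71 CPM in the female and 5.07, 31.3, 81.5 and 7.73 CPM in the male bladder libraries and at 361, 522, 391 and 486 CPM in the female and 323, 385, 411 and 352 CPM in the male urethra libraries, a change of 4.36 ± 0.45 (20.6-fold, adjusted p = 4.8e-07 by edgeR). Uchl1, an abundant neuronal ubiquitin hydrolase, had the smallest. It stood at 35.5, 49.1, 30.9 and 36.9 CPM in the female and 28.9, 64.7, 88.5 and 37.1 CPM in the male bladder libraries and at 300, 382, 289 and 339 CPM in the female and 257, 324, 312 and 300 CPM in the male urethra libraries, a change of 2.77 ± 0.19 (6.84-fold, adjusted p = 4.7e-09 by edgeR). The RNA-binding protein gene Elavl4 (HuD) stood at 4.14, 6.71, 5.52 and 3.61 CPM in the female and 3.56, 7.35, 19.1 and 3.71 CPM in the male bladder libraries. In urethra it stood at 57.1, 96.7, 71.5 and 96.4 CPM in the female and 49.7, 67.2, 66.7 and 65.3 CPM in the male libraries, a change of 3.44 ± 0.30 (10.8-fold, adjusted p = 6.7e-08 by edgeR). The other 10 members of the role changed by 3.25 (L1cam, an axon adhesion protein) to 4.24 (Prph, the intermediate filament of peripheral neurons).

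Per kilobase of exon, the 7 highest median urethra levels all belonged to this role. They were 222.2 CPM for Nefl, 218.5 for Prph, 207.7 for Tubb3, 194.5 for Gap43 (a growth cone protein), 187.5 for Uchl1, 141.8 for Nefm and 84.1 for Stmn2 (a microtubule regulator of growing axons). Nefl and Nefm, neurofilament subunits, overlap on opposite strands of chromosome 14, and the counting used strand. The step between neighbours among the first 5 was smaller than the spread of either gene over the urethra libraries, in which the highest library held 1.48 to 1.66 times the lowest. Members shared few exon bases with other genes on their strand, with 3.72% in Elavl3, 1.94% in Gata3, 1.36% in L1cam and none in the other 34.

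The peptide and nitric oxide genes ranged most widely. Vip, a vasodilator peptide of cholinergic pelvic neurons, had the largest change of all members in the fit of all 16 libraries, close to that of Slc5a7 (4.77 ± 0.43). It stood at 1.51, 1.42, 1.32 and 1.01 CPM in the female and 0.301, 4.43, 8.75 and 0.967 CPM in the male bladder libraries and at 58.9, 76.6, 54.6 and 59.2 CPM in the female and 45.8, 74.3, 65 and 55.1 CPM in the male urethra libraries, a change of 4.79 ± 0.38 (27.7-fold, adjusted p = 2.4e-08 by edgeR). Without male bladder replicate 3, Slc5a7 (5.68), Slc18a3 (5.48), Nos1 (5.37) and Chrna3 (5.31) exceeded Vip (5.29). Npy, a peptide of noradrenergic and of some cholinergic pelvic neurons, changed by 4.59 ± 0.33. Nos1, neuronal nitric oxide synthase, changed by 4.38 ± 0.49, from a bladder range of 0.953 to 25.2 CPM to a urethra range of 68.3 to 139 CPM. Cartpt, a peptide precursor, changed by 2.62 ± 0.31, and it is a member in which the male bladder library of litter 2, at 12.8 CPM, exceeded that of litter 3, at 11.1 CPM. Galanin (Gal) changed least. It stood at 0.783, 0.682, 0.658 and 0.531 CPM in the female and 0.753, 0.827, 1.02 and 0.698 CPM in the male bladder libraries and at 1.56, 1.93, 1.23 and 1.38 CPM in the female and 1.35, 1.47, 1.47 and 1.59 CPM in the male urethra libraries, a change of 1.01 ± 0.13 (2.01-fold, adjusted p = 2.6e-06 by edgeR). Galanin stayed at 1.93 CPM or less in every library, and its groups did not overlap.

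Male bladder replicate 3 stood apart from the other bladder libraries in these genes. It was the highest of the 4 male bladder libraries in 34 of 37 members, where it was highest in 30.8% of all tested genes. The male bladder library of litter 1 was the lowest in 29 of 37, against 26.7% of all tested genes. Summed over the members, male bladder libraries 1 to 4 held 400.2, 782, 1477 and 444 CPM and female bladder libraries 478, 641, 506 and 494 CPM. For the 29 members at least 8-fold higher in urethra, a set chosen by that contrast, each bladder library was placed between the median of the other 7 bladder libraries (0%) and the urethra median (100%). The median position of male bladder replicate 3 was 20.1%, from 10.5% for Insm1 to 26.5% for L1cam. It was 26.2% for Nos1, 21.5% for Slc18a3 and 21.1% for Phox2a, and lower for Vip (12.9%), Npy (12.2%) and Th (11.3%). The corresponding median was 4.62% in male bladder replicate 2 and between -3.08% and 1.83% in the other 6 bladder libraries.

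**Figure D3:**
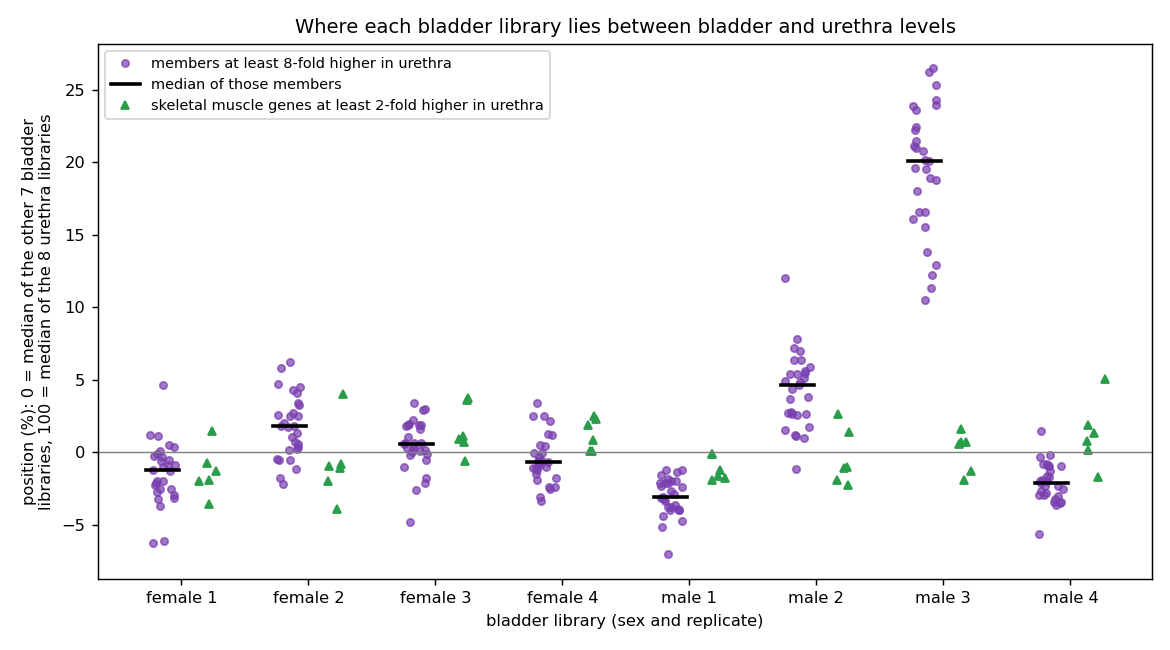
Position of each bladder library between the median of the other 7 bladder libraries (0%) and the urethra median (100%). Circles are the 29 members at least 8-fold higher in urethra, the black bar is their median, and triangles are 6 skeletal muscle genes at least 2-fold higher in urethra. The members of male replicate 3 lie between 10.5% and 26.5%, while its muscle genes lie near 0%. Both gene sets were chosen by their difference between urethra and bladder.

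Other gene groups that are higher in urethra did not all move with the neuron genes in that library. The median position of male bladder replicate 3 was 15.1% for 19 other autonomic neuron genes at least 8-fold higher in urethra. It was 15.2% for 8 Schwann and satellite glia genes at least 2-fold higher, 12.4% for all 569 genes called at least 8-fold higher, and 9.27% for all 2292 genes called at least 2-fold higher. For 6 skeletal muscle genes (Myod1, Myog, Mymk, Myh3, Chrna1 and Chrng), which mark the striated sphincter, it was 0.64%. These are the genes at least 2-fold higher in urethra of a list of 8, so that contrast chose them. The other 2, Tnnt3 (-2.27 ± 0.14) and Actc1 (-3.40 ± 0.13), were called lower. Whether the 6 reached the filter's cutoff in bladder is not given here. Chrng held the same position, -1.92%, in male bladder replicates 1, 2 and 3, which a gene near the floor can do. The summed level of the 8 ran from 881 to 1346 CPM in bladder and from 182 to 310.4 CPM in urethra. Myod1 itself stood at 0.278 CPM in that library, within the 0.0502 to 0.531 CPM of the other bladder libraries, and at 9.97 to 16.2 CPM in urethra. Whether ganglion or other pelvic tissue entered this pool at dissection was not tested. Male bladder replicate 3 was singled out for its high levels of the members, so larger tissue differences without it largely follow from that choice. Without that library, each of the 37 members had a larger tissue difference, the median log2 fold change was 4.10 in place of 3.66, and all 37 were still called higher. In 7 members (Slc18a3, Slc5a7, Chrna3, Chrnb4, Prph, Syt1 and Nos1) the fold change was more than 1.5 times as large without it. It was 5.48 ± 0.26 for Slc18a3, 5.31 ± 0.24 for Chrna3 and 5.37 ± 0.26 for Nos1 on the log2 scale.

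For the members, the spread between libraries of the same group was wider in bladder than in urethra. Its median exceeded that over all tested genes in both tissues. The standard deviation (SD) of log2 CPM within a group, from the mean of the female and male variances of a tissue, had a median of 0.98 over the members in bladder and 0.26 in urethra, beside 0.17 and 0.15 over all tested genes. It was larger in bladder for 35 of 37 members (94.6%) and for 64.9% of all tested genes. The 2 exceptions were Hand2 and Ddc. Most members were far lower in bladder, and the SD of log2 CPM widens at low counts. The values over all tested genes were not matched for level, and the part of counting noise in the bladder spread was not tested. Without male bladder replicate 3, the median SD over the members in bladder was 0.69, and the SD was larger in bladder for 32 of 37 members (86.5%) and 59.4% of all tested genes. Over both sexes together, the highest bladder library held 29.7 times the lowest for Slc18a3, 29.1 times for Vip and 26.4 times for Nos1, but 1.32 times for Hand2 and 1.49 times for Ddc. Without male bladder replicate 3 these ratios were 7.22 for Slc18a3, 14.7 for Vip and 4.14 for Nos1. In urethra the corresponding ratio was 1.86 for Slc18a3, 1.67 for Vip and 2.03 for Nos1. The libraries of litter 1 were the low ones in urethra: male urethra replicate 1 was lowest of its group in 35 of 37 members (26.7% of all tested genes) and female urethra replicate 1 in 28 of 37 (31.2%). Female urethra replicates 2 and 4 shared the highest place, in 20 and 17 members (20.1% and 32.8% of all tested genes). Within pools of the same litter and sex, the urethra minus bladder difference in log2 CPM of Phox2a ran from 2.04 (male, litter 3) to 4.88 (male, litter 4), and that of Slc18a3 from 2.21 (male, litter 3) to 7.04 (female, litter 4).

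In the fit without a litter block, no member was called different between the sexes in either tissue. In none was the tissue difference called different between the sexes. Hand2 was called in urethra with the litter as a block, as given below. The background called in either direction was 0.581% of tested genes in bladder, 6.39% in urethra and 0.668% for the interaction. An unadjusted p under 0.05 was reached by 5 members in bladder (13.5%, against 12.4% of all tested genes), 4 in urethra (10.8%, against 19.2%) and 4 for the interaction (10.8%, against 8.38%). In urethra 36 of 37 members had a lower value in males, with a median log2 fold change of -0.26 and a range from -0.57 (Insm1) to 0.41 (Gata3), beside a median of -0.01 over all tested genes. The members share their libraries, and the female urethra libraries of litters 2 and 4 held the most of them, so the 36 signs are not 36 separate results. Only 1 member had all 4 male urethra libraries below all 4 female ones, where 6.33% of all tested genes had. That was Insm1, at 8.48, 11.5, 10.4 and 13.5 CPM in females and 5.91, 7.62, 7.8 and 8.12 CPM in males (-0.57 ± 0.25, adjusted p = 0.22 by edgeR).

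Hand2 came nearest to a call in male urethra, at -0.35 ± 0.11 (adjusted p = 0.077 by edgeR). With the litter as a block it was called lower, at -0.35 ± 0.09 (adjusted p = 0.026), and by DESeq2 as well, at -0.36 ± 0.12 (adjusted p = 0.042). Without female urethra replicate 1, Hand2 (-0.43 ± 0.11, adjusted p = 0.024) and Ddc (-0.43 ± 0.11, adjusted p = 0.027) were called lower by edgeR. Gata3 had the opposite sign, at 0.41 ± 0.15 (adjusted p = 0.11 by edgeR), and was called higher in males without female urethra replicate 2 (0.53 ± 0.14, adjusted p = 0.043). The summed urothelial markers, a list that includes Gata3, were 683 to 1847 CPM in female and 1705 to 2303 CPM in male urethra. All 13 had the higher sign in male urethra, with 1 called, and their part in the Gata3 value was not tested.

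In bladder, 35 of 37 members had a higher value in males, with a median log2 fold change of 0.84 and a largest value of 2.00 ± 0.79 for Slc18a3 (adjusted p = 0.31 by edgeR). The size depended on which male bladder library was left out. Without replicate 3 the median was -0.04, with 20 members lower and 17 higher in males, and Slc18a3 was at 0.47 ± 0.53. That library was singled out for its high levels of the members, so the fall largely follows from that choice. Without male bladder replicate 1, 2 or 4 the median was 1.12, 0.83 or 1.05. No member was called in any of these fits. The interaction had a median of -1.14 with all 37 signs negative, and of -0.25 with 31 negative without male bladder replicate 3. Leaving out both male bladder replicates 2 and 3, a choice made because their levels were high, gave a median of -0.73 in bladder, and the sign then follows from the choice.

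**Figure D4:**
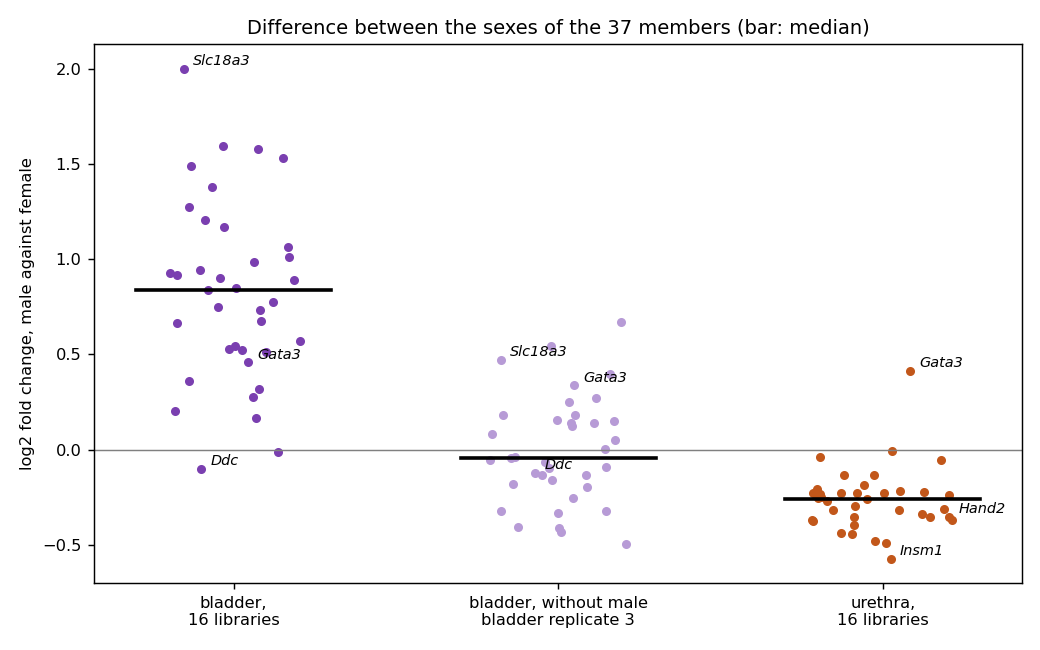
Log2 fold change of male over female for each of the 37 members, in bladder with all libraries, in bladder without male bladder replicate 3, and in urethra, where the bar is the median. The bladder points lie mostly above 0 (median 0.84) and spread around 0 (median -0.04) once that library is left out, and 36 of 37 urethra points lie below 0. That library was singled out for its high levels of the members, so the fall in bladder largely follows from the choice.

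Relative to the pan-neuronal gene Elavl4, transmitter genes and the receptor subunit gene Chrna3 changed unequally between the tissues. Elavl4 changed by 3.44 on the log2 scale, where the 13 pan-neuronal genes had a median of 3.54 and a range from 2.77 to 4.36. These ratios depend on that choice of reference, and no other pan-neuronal gene was used. The log2 ratio of 2 genes within a library depends on how its total is scaled only through the prior count. In all, 6 ratios were tested between tissues and 6 between the sexes in urethra by exact two-sided permutation, with p-values adjusted over the 12. The log2 ratio of Slc18a3 to Elavl4 was -0.22 ± 0.08 (SD, n = 8) in urethra and -1.80 ± 0.74 (n = 8) in bladder, a difference of 1.58 (exact permutation p = 0.00016, the smallest that 8 against 8 allows, adjusted p = 0.00047). Vip to Elavl4 was -0.20 ± 0.27 and -1.79 ± 0.76, Npy to Elavl4 was -1.02 ± 0.21 and -2.25 ± 0.42, and Chrna3 to Elavl4 was -1.19 ± 0.10 and -2.44 ± 0.56. Each of these 3 differed with the same exact permutation p and had no overlap between the tissues, so that these 3 genes differed between the tissues by more than Elavl4 did. Slc18a3 to Elavl4 did not overlap either, and its highest bladder value, -0.51, was that of male replicate 3.

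Th to Elavl4 differed less, at -0.88 ± 0.22 in urethra and -1.25 ± 0.30 in bladder (n = 8 each), a difference of 0.37 with overlapping groups (exact permutation p = 0.017, adjusted p = 0.034). That call was lost, with adjusted p between 0.0507 and 0.069 (exact permutation), on leaving out any 1 of 11 libraries. These were female bladder replicates 1 and 2, all 4 male bladder replicates, female urethra replicates 3 and 4, and male urethra replicates 1, 3 and 4. Th to Slc18a3, a ratio of a noradrenergic to a cholinergic gene, was -0.65 ± 0.25 in urethra and 0.55 ± 0.98 in bladder (exact permutation p = 0.0047, adjusted p = 0.011, n = 8 each). Male bladder replicate 3, at -1.10, lay below every urethra library in this ratio. In urethra no ratio was called different between males and females (adjusted p from 0.26 to 0.97, exact permutation, where 4 against 4 can reach 0.0286 before adjustment). Low bladder levels enter these ratios with a prior count of 2 added, and a prior count of 0.5 changed no call.

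**Figure D5:**
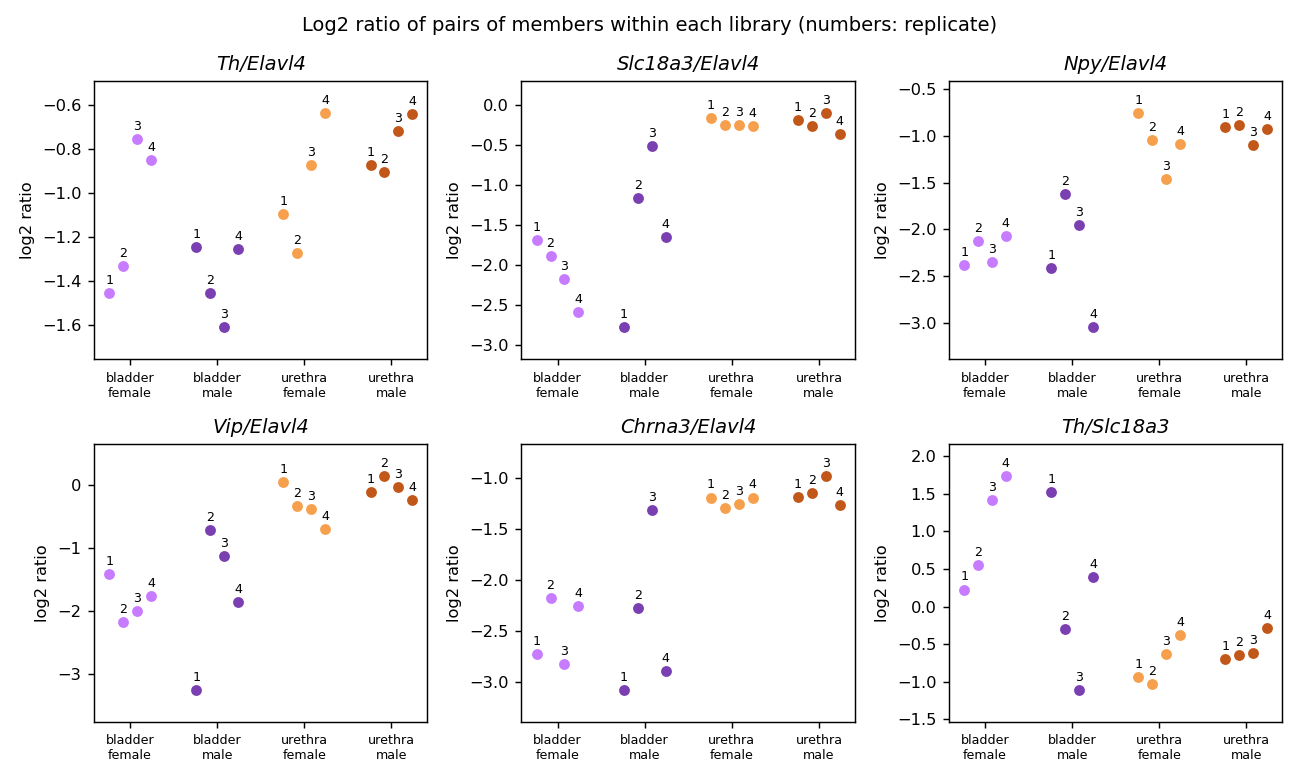
Log2 ratio of pairs of members within each library, by tissue and sex, with the litter number at each point. The ratios of Slc18a3, Npy, Vip and Chrna3 to Elavl4 lie higher in all 8 urethra libraries than in the bladder libraries, Th to Elavl4 overlaps, and Th to Slc18a3 is mostly lower in urethra.

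Other genes of autonomic neurons, from a list of 30 of which 28 were tested, gave the same picture in most cases. In urethra 26 of 28 were called higher and 1 lower, with a median log2 fold change of 3.55. The 2 largest changes were of the peptide genes Adcyap1 (4.97 ± 0.33) and Sst (4.95 ± 0.35). Calca and Tac1, peptide genes that sensory neurons also use, were at 4.74 ± 0.22 and 4.19 ± 0.31. Tbx20, a T-box factor also known from heart and mesenchyme, was lower (-2.07 ± 0.13), at 41.5 to 65.6 CPM in bladder and 8.59 to 18.5 CPM in urethra.

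Penk, the enkephalin precursor, was the 1 gene of that list called between the sexes. It stood at 130, 148, 137 and 139 CPM in female and 251, 301, 269 and 251 CPM in male urethra, with no overlap and a log2 fold change of 0.95 ± 0.18 (adjusted p = 0.00499 by edgeR). In bladder it stood at 37.3, 54.2, 40.2 and 64.8 CPM in females and 22.3, 44, 43.2 and 30.8 CPM in males, and its interaction was called (1.44 ± 0.27, adjusted p = 0.0204 by edgeR). In the same fit, without a litter block, none of the 37 members was called in either contrast. Fibroblasts can express Penk as well, and their part in this value was not tested.

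Glial genes were higher in urethra too. Of 12 Schwann and satellite glia markers, 10 were called higher and none lower, with a median log2 fold change of 2.19. The largest change was of Gfra3 (3.36 ± 0.23), and Mbp (0.07 ± 0.08) and Ednrb (0.11 ± 0.08) were not called. Summed glial levels were 221 to 291 CPM in bladder, where male replicate 3 was the highest, and 376 to 466 CPM in urethra. Of 7 enteric neuron genes, a list that shares 3 genes with the members, 6 were called higher and none lower, with a median of 4.11. These genes do not separate enteric from pelvic neurons. The smooth muscle markers went the other way, with 7 of 7 lower in urethra by a median of -3.32, as did 5 of 5 proliferation genes (median -0.74).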

How the data were processed

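RNA was measured in 16 libraries of 100-base read pairs, made from 250 ng of total RNA each. The authors deposited counts of read pairs per gene, made with featureCounts of Subread 1.6.3 with strand setting 2, per the file headers. Reads had been aligned to GRCm38 with HISAT2 2.1.0, per the submitters' processing notes, and the sources used here do not give the annotation release. Pairs that map to several places or genes were not counted, which lowers near-identical and overlapping genes. The 37 members had the same start and end in GENCODE M21, which was used for exon overlap. Differences were tested with edgeR 4.0.16 in R 4.3.3. Settings were TMM scaling, filterByExpr with a minimum count of 10, a robust quasi-likelihood fit over all 4 groups and Benjamini-Hochberg adjusted p under 0.05. The fit was first tested on simulated data with few changed genes and independent noise per gene, a setting unlike these data. DESeq2 1.42.0, other scalings, no filter, a litter block, fits of only the groups compared and leaving out each library were the alternatives. The members, roles, marker lists and tests were chosen with earlier results of these data known. Values in every library are given for the tested members with the largest and smallest tissue change in each role, for Phox2a, Th, Slc18a3, Chrna3 and Elavl4, and for Penk and members called in a sex contrast, and of each other list the 2 highest and 2 lowest by tissue change could be named. Calca, Tac1 and Myod1 were named after their values were seen, and some genes that the rule names are not reported here. The bladder position measure was also added after seeing the data.

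The labels give the litter of each library, so equal replicate numbers pair samples. Deviations from the group mean of log2 CPM correlated between the tissues of 1 litter and sex with a median of 0.19 (over 0.1 in 7 of 8 pairs), and between females and males of the same litter and tissue with a median of 0.12 (4 of 8). In all 24 pairs of libraries within a group, counts differed by more than sampling noise, with a chi-square per degree of freedom of at least 4.55. Figures were drawn with matplotlib 3.10.9.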

Additional observations from a re-analysis of the deposited data

Results flagged for a closer look

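In each group of 4 libraries, a library counts as standing apart when its gap to the nearest of the others, divided by the group's range of CPM, is above Dixon's 95% critical value for 4 samples. Of 148 groups examined over the 37 members, 8 did so, which is close to the 1 in 20 that chance gives. The same share over all tested genes is not given here. All 8 fell in 2 libraries. Male bladder replicate 3 was the high one for Slc18a2 (4.03 CPM), Slc5a7 (12.1 CPM), Chrna3 (7.64 CPM), Syt1 (13 CPM, a synaptic vesicle calcium sensor) and Nos1 (25.2 CPM). Male urethra replicate 1 was the low one for Hand2 (109 CPM), Chrna5 (5.2 CPM) and Elavl4 (49.7 CPM). Values within a library are not independent of one another, since the members share its RNA.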

How the results depend on the processing

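All 37 members stayed called higher in urethra under every alternative run, with the litter as a replicate block and with litter and sex as blocks (37 each) included. The median of all genes moved from -0.026 to 0.11 when library totals alone were used, and the members' median was then 3.79. Counts of sex calls over all genes were less stable. In bladder, 45 genes were higher in males, against 90 with no filter, 231 by DESeq2, 8 in a fit of only the groups compared and 9 without male bladder replicates 2 and 3, a choice made after seeing the data. The 61 lower genes became 249 by DESeq2 and 8 in the fit of those groups alone. In urethra the 442 lower genes became 697 by DESeq2. For the interaction, 98 higher genes became 196 by DESeq2, and 24 lower ones became 78 by DESeq2, 39 with the litter block and 6 without both male bladder libraries.

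Leaving out 1 library at a time gave 10 to 82 higher and 30 to 103 lower genes in male bladder, 447 to 897 higher and 227 to 794 lower in male urethra, and 60 to 119 higher and 9 to 28 lower for the interaction. Members called lower in male urethra numbered 0 to 2, and higher 0 to 1, across these. The count lower was 1 by DESeq2 and with the litter block (Hand2 in both) and 1 in a fit of urethra alone (Insm1, -0.56, adjusted p = 0.048 by edgeR), in which Gata3 was the 1 called higher (0.43, adjusted p = 0.039). Male bladder replicates 2 and 3 were left out for their high levels of the members, so lower male values follow from that choice. Without both male bladder libraries, 2 members were called lower in male bladder, Prph (-1.04) and Nefl (-1.09). The bladder sex differences of Phox2a, Slc18a3 and Elavl4 then reversed to -0.85, -0.60 and -0.48, and their interactions to 0.65, 0.26 and 0.13. With 1 library left out, Elavl4 in bladder ranged from -0.043 (reversed, without male replicate 3) to 1.03, and Th in urethra from -0.37 to 0.048 (reversed, without female replicate 4). The Slc18a3 to Elavl4 ratio between the sexes in urethra, 0.0059, ranged from -0.036 to 0.051 and changed sign in 4 of 16 cases, and Th to Elavl4 between tissues ranged from 0.32 to 0.44. The litter sign-flip test changed no ratio call. Between the sexes it could not have made one, since 4 pairs reach no sign-flip p below 0.125. Between the tissues, 8 pairs can reach a sign-flip p of 0.00781. DESeq2 size factors and library totals alone, both added after seeing the data, changed no ratio call or direction. Of 8 bladder libraries, Chat reached the filter's cutoff in 1, Chrnb4 in 4, Chrna7 in 5 and Insm1 in 6, so their bladder values rest on few counts. The parts of depth and of low level in this were not tested. The cause of these shifts was not tested.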

Other observations

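Within 1 sex, the tissue difference on the log2 scale was 5.87 ± 0.69 in females and 3.51 ± 0.57 in males for Slc18a3, and 4.17 ± 0.40 and 3.60 ± 0.39 for Th. None of the 37 members had an interaction between tissue and sex that edgeR called, and 4 had an unadjusted p under 0.05. Without male bladder replicate 3, left out for its high levels of the members, the male value of Slc18a3 was 5.08 ± 0.37 and that of Th was 4.33 ± 0.34.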
